A study of Mus musculus with 80 samples.

Results

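Late reticulocyte transcripts were followed through the whole blood of irradiated female C57BL/6 mice. They are the 9 rows of the authors' gene table whose symbols are Bpgm, Slc25a37, Bnip3l, Fbxo7, Trim58, Xpo7, Tent5c, Mir451a and Aldh3b2, out of 50365 rows used and 21101 genes tested, and all 9 passed the filter on low values (10 or more, in 3 libraries or more). The group was chosen by its irradiated-minus-sham differences, which were already known, so the members' values and counts in those contrasts are given below as a description beside the share of all genes, no p-value is printed for a member there, and nothing is read from them. Of the members' own comparisons, those between sham groups were not used for that choice, and they carry p-values. They share their sham libraries with the contrasts that were used, so they are not independent of the choice. Genes that are not members are given with adjusted p-values. Their lists were also chosen with earlier results of these data known, so those p-values and the counts of each list are a description and no test of a list.

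The series holds 80 libraries in 14 groups, 38 from irradiated and 42 from sham mice. In the mode labelled VarDR the dose built up at a falling dose rate, made to resemble internal 137Cs. It had reached 2 Gy on day 2 (1 Gy/day, n = 5), 2.8 Gy on day 3 (0.77 Gy/day, n = 6), 4.1 Gy on day 5 (0.62 Gy/day, n = 6) and 9.7 Gy on day 30 (0.056 Gy/day, n = 6). In the acute mode the same 2 Gy (day 2, n = 6), 2.8 Gy (day 3, n = 3) and 4.1 Gy (day 5, n = 6) were given at 0.73 Gy/min. Dose rose with day in both modes, and each acute dose was sampled on 1 day only. Differences between days below therefore cannot be told apart from differences between doses, and they do not follow 1 dose over time. Each of the 7 irradiated groups had a sham group of its own mode and day (0 Gy, n = 6), and no genetic change is labelled in any group. Blood went into PAXgene tubes, globin RNA was cleared and ribosomal RNA depleted before stranded total RNA libraries were made, so haemoglobin levels below are those left after clearing.

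Reticulocytes are red cells that have expelled their nucleus and make no new RNA. They still carry messenger RNA from the marrow, and over their last days they lose mitochondria, ribosomes and that RNA. The members act at or before that stage: Bpgm makes 2,3-bisphosphoglycerate, which lowers haemoglobin's hold on oxygen, and Slc25a37 (mitoferrin 1) brings iron into mitochondria for haem. Bnip3l (Nix) marks mitochondria for removal by autophagy, Fbxo7 and Trim58 are parts of ubiquitin ligases, and Xpo7 is a nuclear exporter that acts before the nucleus is lost. Tent5c is a poly(A) polymerase that lengthens messenger RNA tails, Mir451a is the erythroid microRNA locus, and Aldh3b2 belongs to a family that oxidizes fatty aldehydes.

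The label was set against 6 defining red cell markers (Alas2, Slc4a1, Hba-a1, Hbb-bs, Hemgn and Ermap). None was at 0 throughout a group. On the rescaled scale explained below, in kilocounts of 1000, their summed level was 40.6 to 163 kilocounts in acute day 2 libraries against 1111 to 3821 kilocounts in their shams, and 9.95 to 14.9 kilocounts on acute day 3 against 2477 to 2803 kilocounts in shams. On VarDR day 30 it was 3959 to 7598 kilocounts against 865 to 3036 kilocounts in shams. In whole blood, fewer reticulocytes and less RNA in each reticulocyte cannot be told apart, and the part of other blood cells in the members' values was not tested.

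The sequences below are those of the microRNA, the only noncoding member, with its neighbour, and of the start-site regions of the members with the lowest and the highest acute day 3 difference, Bpgm and Trim58. All are from RefSeq on GRCm38.p6 and are written 5′ to 3′.
miR-451a, mature, seed (bases 2 to 8) in capitals: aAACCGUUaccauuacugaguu
Mir451a hairpin, mature part in capitals: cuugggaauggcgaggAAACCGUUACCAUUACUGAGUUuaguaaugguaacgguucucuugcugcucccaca
miR-144-3p, the neighbour on the same strand, seed in capitals: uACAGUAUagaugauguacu
Bpgm, chr6:34476106-34476405, + strand, motif match in capitals: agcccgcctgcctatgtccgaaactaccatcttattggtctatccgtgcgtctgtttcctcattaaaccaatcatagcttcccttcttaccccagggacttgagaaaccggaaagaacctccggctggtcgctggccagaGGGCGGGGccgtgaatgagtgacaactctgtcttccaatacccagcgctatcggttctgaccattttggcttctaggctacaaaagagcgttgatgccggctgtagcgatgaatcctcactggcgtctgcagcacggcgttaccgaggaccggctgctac
Trim58, chr11:58640215-58640514, + strand, motif match in capitals: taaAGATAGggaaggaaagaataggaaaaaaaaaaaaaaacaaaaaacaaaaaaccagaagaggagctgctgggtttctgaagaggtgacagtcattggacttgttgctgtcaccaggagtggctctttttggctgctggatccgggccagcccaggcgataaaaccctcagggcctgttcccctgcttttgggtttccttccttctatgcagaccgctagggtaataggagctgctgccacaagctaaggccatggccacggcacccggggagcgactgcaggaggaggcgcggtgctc
The miR-451a seed AACCGUU was held by 1 of 1738 mature mouse miRNAs in RefSeq, miR-451a itself, so no other member of that table shared it. The mature part runs around the loop of its hairpin, whose precursor is known to be cut by Ago2 in place of Dicer.

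The promoter windows run from 250 bases before to 50 bases after each start, and 4 of the 9 members had an entry (Bpgm, Tent5c, Fbxo7 with 2 starts, and Trim58). They were searched on both strands for the GATA motif (AGATAA, its form with a last G, AGATAG, and the forms of both with a first T, TGATAA and then TGATAG) and for the KLF motif CCNCNCCC, where N is any base, and matches were not required to be separate. A GATA motif was in the Trim58 window, 247 bases before the start, and in none of the other 4 windows, while 29.8% of all 32851 windows held one. The KLF motif was found 5 times in the Tent5c window and 1 time in that of Bpgm, on the other strand and 110 bases before the start, and not in the others. It was in 49.5% of all windows. The E-box motif CANNTG, also searched for, was found 1 time in the Tent5c window and 2 and 3 times in those of Fbxo7. The Bpgm and Trim58 windows had none, and 72.3% of all windows held it. These are matches of letters only.

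Values are the authors' normalised read counts after each column had been rescaled to the same median ratio (rescaled counts), given for the abundant members in kilocounts of 1000 rescaled counts, and differences are of log2(rescaled count + 1), irradiated minus sham, ± SE from limma. Column totals as deposited ran from 15.9 to 77.7 M, and 15637 to 27535 genes were above 0 per library. The rescaling factors differed between acute irradiated columns and their shams (mean log2 factor of 0.58 for irradiated and −0.38 for sham columns on acute day 5), and whether these columns had been normalised together is not given in the sources used here. One library stood apart, acute irradiated day 5 replicate 5, in which mt-Rnr2, a mitochondrial ribosomal RNA, held 16.6% of the signal, and leaving it out moved no call on day 5. The liver markers Alb, Apoa1, Apoa2, Serpina1a, Trf, Ttr, Fgb and Cyp2e1 held up to 3.05% of a library. The sheet of the deposited table is titled for lung, a tissue no label names, and the 6 lung markers looked at summed to at most 0.0956 kilocounts in any library. Nothing in the labels states that each library came from another mouse, so the spread between libraries may be partly technical.

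Per kilobase of exon (GENCODE M21), Tent5c and Bpgm stood highest among the members in the 42 sham libraries, at 22.9 to 224 (median 68.95) and 28.5 to 217 (median 70.2) kilocounts per kb. These ranges overlapped almost fully. Bnip3l followed at 15.8 to 126 (median 37.7) kilocounts per kb and Slc25a37 at 4.72 to 63.4 (median 13.5). Mir451a, whose locus is 72 bases long, had 383 to 7023 (median 1732) rescaled counts per kb, Xpo7 203 to 1119 (median 463), Fbxo7 139.7 to 949.7 (median 287), Trim58 55.1 to 472 (median 129.8) and Aldh3b2 16.7 to 280.5 (median 79.1). The sham ranges of each pair of neighbours in this order overlapped, those of Bpgm and Tent5c included. Ranges across libraries do not compare genes within a library. Within every sham library Bpgm was above Bnip3l, at 1.56 to 1.88 times its level before division by exon length (3588 bases for Bpgm, 3859 for Bnip3l).

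On acute day 2, all 9 members were lower than in shams and no irradiated library reached the lowest sham in any of them. The median log2 difference of the members was −3.92, and that of all genes 0.05. Adjusted p passed 0.05 for 9 of 9 members, lower in each, with 7.47% of all genes tested passing in that direction, and all irradiated libraries lay below all shams for 5.35% of genes. These numbers come from the contrasts that picked the members, and nothing is read from them. The spread between members was wide: the largest difference was that of Aldh3b2 (−6.72 ± 0.42) and the smallest that of Xpo7 (−2.13 ± 0.30), a range of 4.59 log2 units. The members' share of all signal was 0.181 ± 0.0419% in acute day 2 libraries, against 2.97 ± 1.65% in their shams (mean ± SD, n = 6 each).

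On acute day 3, at 2.8 Gy, the members stood lower still against their shams, with a median log2 difference of −5.75 against 0.30 for all genes. All 9 passed lower (8.73% of all genes did) and all 9 were below every sham library (10.3% of genes). The range between members was 5.39 log2 units, and Bpgm (−7.86 ± 0.42) was at its lower end and Trim58 (−2.47 ± 0.45) at its upper end. The members held 0.0830 ± 0.00352% of the signal (n = 3) against 2.77 ± 0.972% in shams (n = 6). All 8 liver markers passed higher in this comparison, at 0.140 to 2.01% of the signal against 0.00111 to 0.0917% in shams, and the members' median difference was −5.98 with only the 1 irradiated library that held under 0.5%.

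On acute day 5, at 4.1 Gy, the members were nearer their shams than on the other acute days, which had other doses. The median log2 difference was −0.91 (0.02 for all genes), 5 of 9 passed lower (9.12% of all genes), and 6 of 9 lay below every sham library (7.02% of genes). The other 3, Mir451a, Trim58 and Slc25a37, overlapped the shams. The members held 1.43 ± 0.305% of the signal, against 1.99 ± 0.229% in shams (n = 6 each). Whether the members are called lower on day 5 depends on the scale. On the values as deposited, the day 5 median was 0.04 and 0 of 9 passed by limma, while 47.98% of all genes passed higher and 2.09% lower (median 0.88).

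Under the falling dose rate the early differences were nearer 0 than those of the acute mode, and the gap between the modes was not tested. On VarDR day 2 all 9 differences were negative with a median of −0.86 (−0.04 for all genes), 0 of 9 passed by limma (5 of 9 at an unadjusted p under 0.05), and 2.53% and 0.744% of all genes passed higher and lower. Irradiated and sham libraries overlapped for every member, where 1.14% of genes lay wholly below and 1.54% wholly above their shams: Bpgm was 67.96, 80.9, 88.7, 101 and 142 kilocounts in irradiated mice and 102 to 523 (median 138) kilocounts in shams. On VarDR day 3 the median was −1.35 (−0.03 for all genes), and 7 of 9 passed lower (5.24% of all genes), the exceptions being Mir451a (−0.70 ± 0.46) and Trim58 (−0.79 ± 0.37). Only Aldh3b2 was below every sham on that day (1.67% of genes were). On VarDR day 5 the median was −0.23 (0.10 for all genes), 3 members were higher and 6 lower, all 9 overlapped the shams (0.905% of genes lay wholly below them and 2.3% wholly above), and 0 of 9 passed by limma (0 at an unadjusted p under 0.05; 5.41% of all genes passed higher and 3.38% lower).

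On VarDR day 30, at 9.7 Gy, the members stood on the other side of their shams. All 9 differences were positive, from 1.19 ± 0.37 for Tent5c to 1.73 ± 0.30 for Xpo7, with a median of 1.40 (−0.18 for all genes). Adjusted p passed for 9 of 9, higher (12.7% of all genes), and 6 of 9 lay above every sham (8.43% of genes), all but Tent5c, Mir451a and Slc25a37. Whether the members are called higher depends on the scale. As a share of all signal they were 3.03 ± 0.412% in irradiated mice and 3.24 ± 0.771% in shams (n = 6 each), and with columns set to equal totals their median difference was 0.02 and 0 of 9 passed by limma, while 0.284% of all genes passed higher and 58.1% lower (median −1.32). The 7SL RNA, which helps to guide secreted proteins to the endoplasmic reticulum, held 56.9 ± 2.56% of the signal in these irradiated libraries and 41.99 ± 4.39% in their shams. With equal totals after leaving out 7SL, haemoglobin and mitochondrial genes together, the members' median was 0.52 and 5 passed higher. On that scale 2.86% of all genes passed higher and 44.7% lower (median −0.91). The part of 7SL alone was not tested. With quantile normalization the median was 0.61 and 4 passed, with Tent5c at −0.16, where 9.21% of all genes passed higher and 11.6% lower. Without VarDR sham day 30 replicate 1 the count was 6, and the share of all genes in that setting is not given here.

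Markers of other blood cells moved beside the members, on the rescaled values and by the same fit. Of all genes, 2.53%, 5.12%, 5.41% and 12.7% passed higher on VarDR days 2, 3, 5 and 30, and 0.744%, 5.24%, 3.38% and 12.5% lower. For acute days 2, 3 and 5 it was 7.37%, 11.8% and 9.76% higher and 7.47%, 8.73% and 9.12% lower. Marker counts were not made on other scales. The VarDR day 30 median of all genes was −0.18 on this scale and −1.32 with columns at equal totals. Of 6 B cell markers, 6 were lower on each acute day, and 5, 5, 6 and 6 on VarDR days 2, 3, 5 and 30. Platelet markers were higher for 7, 8, 8 and 8 of 8 on VarDR days 2, 3, 5 and 30 and for all 8 on each acute day. The platelet markers summed on VarDR day 30 to 145 to 198 kilocounts against 58.3 to 92.5 kilocounts in shams. NK cell markers were higher for 5, 5 and 3 of 5 on acute days 2, 3 and 5 and for 2 of 5 on VarDR day 3, and neutrophil markers for 3, 5, 3 and 1 of 6 on VarDR days 2, 3, 5 and 30 and 3, 0 and 2 of 6 on acute days 2, 3 and 5. Of the 6 red cell markers, 6, 6 and 5 were lower on acute days 2, 3 and 5, 4 were lower on VarDR day 3 and 6 were higher on VarDR day 30. Of 6 T cell markers, 0, 2, 0 and 0 were higher and 0, 0, 0 and 3 lower on VarDR days 2, 3, 5 and 30. For acute days 2, 3 and 5, 4, 0 and 1 were higher and 0, 1 and 1 lower. Of 5 monocyte markers, 1 was higher on each VarDR day and 1 lower on days 2, 3 and 5. For the acute days 1, 3 and 2 were higher and 1, 1 and 0 lower. Of 5 plasma cell markers, 2 were higher on VarDR day 3, 1 on acute day 5, and 1 was lower on each acute day. The part of these cells in the members' results was not tested.

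**Figure D1:**
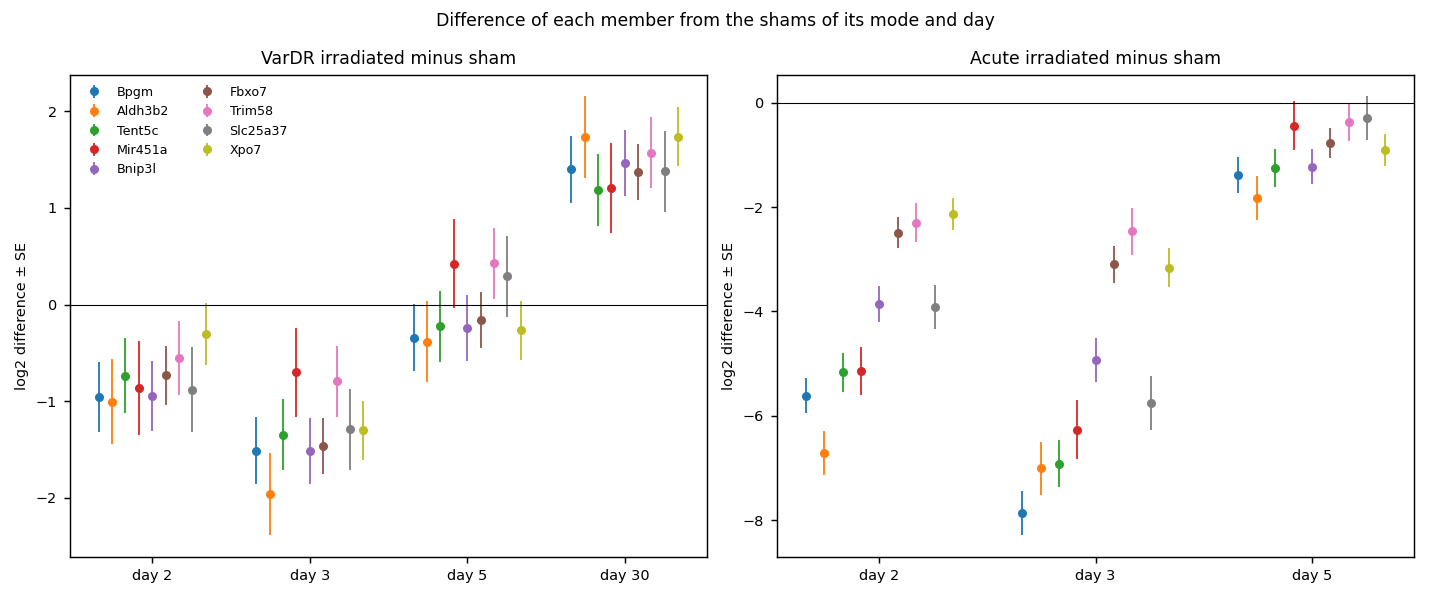
The log2 difference (irradiated minus sham, points, with its standard error as bars) of each of the 9 members, coloured by gene, for VarDR days 2, 3, 5 and 30 on the left and acute days 2, 3 and 5 on the right, on separate scales. The members spread over 5.39 log2 units on acute day 3 and over 0.55 on VarDR day 30.

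**Figure D2:**
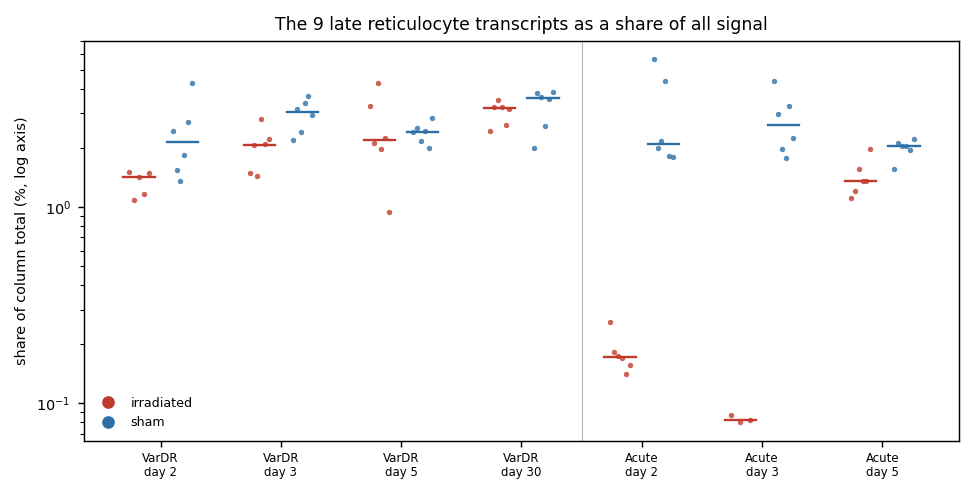
Share of each library's column total held by the 9 members together (per cent, log axis), irradiated to the left of sham in each pair, with points for libraries and bars for group medians. The acute day 2 and day 3 libraries lie between 0.0801 and 0.261%, and every sham library lies at 1.35% or above.

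Bpgm, the 2,3-bisphosphoglycerate enzyme on chromosome 6 (34476207–34505613, + strand) of GRCm38, was lower in every acute irradiated library than in any sham. In kilocounts it was 3.40 to 7.90 (median 4.72) on acute day 2 against 141 to 654 (median 191) in shams, 1.22, 1.31 and 1.72 on day 3 against 236 to 453 (median 339) in shams, and 40.4 to 97.1 (median 79.6) on day 5 against 147 to 244 (median 190.4) in shams. The mean was 1.82%, 0.425% and 39.4% of the sham mean on these days, so the gap was widest on day 3. Under VarDR it was 73.99 to 304 (median 184) kilocounts on day 3 against 259.9 to 779 (median 417) in shams, and 5 of the 6 irradiated libraries lay below the lowest sham. On VarDR day 5 it was 56.3 to 376 (median 225) against 151 to 293 (median 252) kilocounts in shams, which overlapped, and on day 30 529.9 to 1083 (median 769) against 144 to 465 (median 304) kilocounts in shams, where every irradiated library was above every sham. The log2 differences were −0.96 ± 0.36, −1.51 ± 0.34, −0.34 ± 0.34 and 1.40 ± 0.34 on VarDR days 2, 3, 5 and 30, and −5.61 ± 0.34, −7.86 ± 0.42 and −1.38 ± 0.34 on acute days 2, 3 and 5.

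Slc25a37, the mitochondrial iron importer on chromosome 14 (69241848–69285112, − strand), followed Bpgm in direction on acute days 2 and 3 and was nearer to its shams on day 5. In kilocounts it was 3.90 to 13.1 (median 5.13) on acute day 2 against 44.8 to 379 (median 63.5) in shams, and 1.73, 1.91 and 2.53 on day 3 against 55.4 to 246 (median 108) in shams. On acute day 5 it was 40.2 to 67.9 (median 49.3) against 35.9 to 89.9 (median 63.1) in shams, and the groups overlapped (−0.30 ± 0.42 in log2). On VarDR day 2 it was 26.2, 30.2, 30.6, 33.1 and 59.6 kilocounts against 28.4 to 224 (median 51.6) in shams, and the groups overlapped (−0.88 ± 0.44). On later VarDR days it was 34.9 to 129 (median 82.6) kilocounts on day 3 against 101 to 382 (median 157) in shams, 28.1 to 232 (median 103) on day 5 against 62.4 to 101 (median 80.3) in shams, and 202 to 402 (median 335) on day 30 against 52.2 to 233 (median 138) in shams. These 3 pairs overlapped too, with the day 5 irradiated libraries on both sides of their shams. Its call on VarDR day 3 was lost without any 1 of 5 of the 12 libraries (differences of −1.28 to −1.06). The gene overlaps 4 other annotated genes, 2 of them typed as antisense, and whether the counting used strand is not given in the sources used here.

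Among the members that act in organelle removal, Bnip3l, the mitophagy receptor on chromosome 14 (66985239–67008877, − strand), was 6.49 to 17.1 (median 8.92) kilocounts on acute day 2 against 89.4 to 349 (median 109.7) in shams. On acute day 3 it was 5.87, 6.30 and 6.69 against 142 to 278 (median 196) kilocounts in shams, and on day 5 30.3 to 66.3 (median 51.4) against 90.01 to 137 (median 116) in shams. No acute irradiated library of Bnip3l reached a sham of its day, and the differences were −3.86 ± 0.34, −4.94 ± 0.42 and −1.22 ± 0.34 in log2. On VarDR day 30 it was 294 to 629.6 (median 457) against 79.2 to 263 (median 171) kilocounts in shams (1.46 ± 0.34), again without overlap. Bnip3l was 45.5, 48.1, 51.8, 62.8 and 75.1 kilocounts on VarDR day 2 against 60.8 to 303 (median 82.7) in shams, 45.7 to 172 (median 115) on day 3 against 149 to 487 (median 251) in shams, and 32.6 to 241 (median 132) on day 5 against 83.7 to 169.5 (median 151) in shams. All 3 pairs overlapped. Its VarDR differences on days 2, 3 and 5 were −0.95 ± 0.36, −1.52 ± 0.34 and −0.25 ± 0.34.

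The ubiquitin ligase genes Fbxo7, on chromosome 10 (86021972–86051873, + strand), and Trim58, on chromosome 11 (58640465–58652404, + strand), kept more of their sham level than the other members on acute days 2 and 3, apart from Xpo7. Fbxo7, the substrate-binding part of an SCF ligase, had 241 to 354 (median 306) rescaled counts on acute day 2 against 1159.5 to 3908 (median 1554) in shams, and 230.3, 254 and 262 on day 3 against 1544 to 3029 (median 2106) in shams. Trim58, which is known to drive loss of the motor protein dynein during maturation, had 22.8 to 101 (median 43.4) on acute day 2 against 136 to 709 (median 179.7) in shams, and 50.3, 58.3 and 60.03 on day 3 against 154 to 446 (median 369) in shams. Neither gene overlapped its shams on these days, and their means were 11.3% and 16.9% of the sham mean on day 3. Trim58 overlapped the shams on acute day 5, at 121 to 209 (median 192) against 149.7 to 343 (median 218) in shams (−0.38 ± 0.37 in log2), while Fbxo7 did not, at 578 to 972 (median 863) against 985 to 1813 (median 1406) in shams (−0.77 ± 0.29). On VarDR day 30 Fbxo7 was 3429 to 7326 (median 4943) against 1103 to 3339.7 (median 1964) in shams and Trim58 750.3 to 1146 (median 838) against 121 to 524 (median 325) in shams, with every irradiated library above every sham for both. On VarDR day 5 Trim58 was 115 to 809 (median 316) against 149 to 366 (median 225) in shams, with irradiated libraries on both sides of the sham range. On VarDR day 3 Fbxo7 was 713 to 2149 (median 1358) against 2013 to 5869 (median 3202) in shams (−1.46 ± 0.29) and Trim58 162 to 461 (median 328) against 311 to 1035 (median 445) in shams (−0.79 ± 0.37), with overlap for both. The day 2 values were 572, 746, 799.9, 1036 and 1161 against 863 to 3518 (median 1012) in shams for Fbxo7 and 79.8, 142, 144, 196 and 273 against 121 to 477 (median 182) in shams for Trim58. Fbxo7 on day 5, at 604 to 2765 (median 1549) against 1058 to 2196 (median 1702) in shams, overlapped as well. Fbxo7 overlaps an antisense gene and a small nuclear RNA gene in GENCODE.

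Xpo7, the nuclear exporter on chromosome 14 (70654246–70766628, − strand), had the smallest acute day 2 difference of the members. In kilocounts it was 1.33 to 2.75 (median 1.74) on acute day 2 against 5.52 to 17.7 (median 7.14) in shams, 1.12, 1.12 and 1.24 on day 3 against 8.35 to 12.9 (median 10.03) in shams, and 2.85 to 5.30 (median 3.81) on day 5 against 5.70 to 8.78 (median 7.32) in shams. All 3 acute groups lay below their shams, and the means were 21.4%, 11.1% and 53.6% of the sham means. Leaving out acute irradiated day 5 replicate 1, or acute sham day 5 replicate 2 or 3, ended its call on acute day 5. Under VarDR it was 3.44, 4.05, 4.63, 5.74 and 6.47 kilocounts on day 2 against 3.85 to 13.01 (median 4.44) in shams, 2.86 to 9.14 (median 6.67) on day 3 against 8.54 to 21.3 (median 12.3) in shams, and 20.1 to 46.4 (median 31.98) on day 30 against 4.97 to 15.4 (median 9.61) in shams. The first 2 pairs overlapped, and on day 30 each irradiated library was above all shams, the highest difference of the members that day (1.73 ± 0.30). On VarDR day 5 it was 2.02 to 14.9 (median 8.59) against 4.83 to 10.97 (median 9.24) kilocounts in shams, with overlap (−0.27 ± 0.30). The Xpo7 locus overlaps the protein-coding genes Npm2 and Dok2 and a pseudogene.

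Tent5c, the poly(A) polymerase on chromosome 3 (100451628–100489324, − strand), was 8.63 to 20.6 (median 10.1) kilocounts on acute day 2 against 243 to 1335 (median 284) in shams, 3.78, 3.84 and 5.03 on day 3 against 317 to 907 (median 521) in shams, and 93.9 to 167 (median 142) on day 5 against 208 to 408 (median 325) in shams. The groups did not overlap on any acute day, and the differences were −5.17 ± 0.37, −6.91 ± 0.45 and −1.26 ± 0.37 in log2. Its VarDR differences were −0.73 ± 0.39, −1.35 ± 0.37, −0.23 ± 0.37 and 1.19 ± 0.37 on days 2, 3, 5 and 30. Tent5c had 163, 166, 172, 175 and 256 kilocounts on VarDR day 2 against 139.7 to 1059 (median 266) in shams, 138 to 556 (median 336) on day 3 against 398 to 1366 (median 706) in shams, and 107 to 834 (median 362) on day 5 against 295 to 456 (median 441) in shams. In each pair the highest irradiated library was above the lowest sham. The day 30 groups also overlapped, at 823 to 1770.2 (median 1285) against 245 to 959 (median 593) kilocounts in shams.

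Mir451a, on chromosome 11 (78073170–78073241, + strand), was near the floor of the table on acute days 2 and 3. The total RNA libraries count fragments over its 72-base locus and do not measure the mature miRNA printed above. Its rescaled counts were 0, 0.649, 1.61, 2.34, 3.94 and 4.99 in the 6 acute day 2 libraries against 47.5 to 215 (median 93.98) in shams, and 0, 1.04 and 1.27 in the 3 acute day 3 libraries against 47.5 to 200.3 (median 155) in shams. It was listed at 0 in 1 library of each of these irradiated groups and in no sham, so its log2 differences (−5.14 ± 0.46 and −6.27 ± 0.57) rest on the pseudocount, and were −6.13 and −7.89 with a pseudocount of 0.1. On acute day 5 it was 49.4 to 118 (median 75.3) against 60.3 to 136 (median 109.7) in shams, which overlapped (−0.44 ± 0.46). On VarDR day 2 it was 28.6, 36.5, 72.4, 78.05 and 109.9 against 55.9 to 231 (median 98.7) in shams (−0.86 ± 0.49). Later under VarDR it was 71.9 to 205 (median 158) on day 3 against 128 to 506 (median 187) in shams, 16.7 to 377 (median 174) on day 5 against 27.6 to 166 (median 105) in shams, and 152 to 438 (median 355) on day 30 against 68.2 to 235 (median 151) in shams, and all 4 pairs overlapped. Its call on VarDR day 30 was lost without any 1 of 8 of the 12 libraries of that day. Mir451b lies antisense on the same 72 bases, and its median in the shams was 0, as was that of Mir144.

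Aldh3b2, the aldehyde dehydrogenase on chromosome 19 (3972328–3981646, + strand), was the lowest member per kilobase of exon and also had values at 0. Its rescaled counts were 0, 0, 0, 0.812, 2.04 and 2.97 in the 6 acute day 2 libraries against 92.1 to 473 (median 145) in shams, and 0, 0.541 and 1.03 in the 3 acute day 3 libraries against 124 to 232 (median 200.4) in shams. On day 2, 3 values and on day 3 1 value were listed at 0, and the log2 differences (−6.72 ± 0.42 and −7.01 ± 0.52) became −8.68 and −8.81 with a pseudocount of 0.1. On acute day 5 it had 16.3 to 42.4 (median 33.98) against 78.4 to 148 (median 115) in shams, on VarDR day 3 28.9 to 146 (median 81.2) against 169.7 to 601 (median 221) in shams, and on VarDR day 30 524 to 934 (median 776) against 119 to 448 (median 208) in shams. None of these 3 pairs overlapped, and the first 2 were lower and the last higher in irradiated mice. On VarDR day 2 it had 26.9, 29.6, 52.7, 76.5 and 98.7 against 35.7 to 320.1 (median 84.7) in shams, and on VarDR day 5 35.1 to 213 (median 155) against 87.99 to 248 (median 172) in shams, with overlap on both days. It had the lowest difference of the 9 members on VarDR days 2, 3 and 5 and on acute days 2 and 5.

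**Figure D3:**
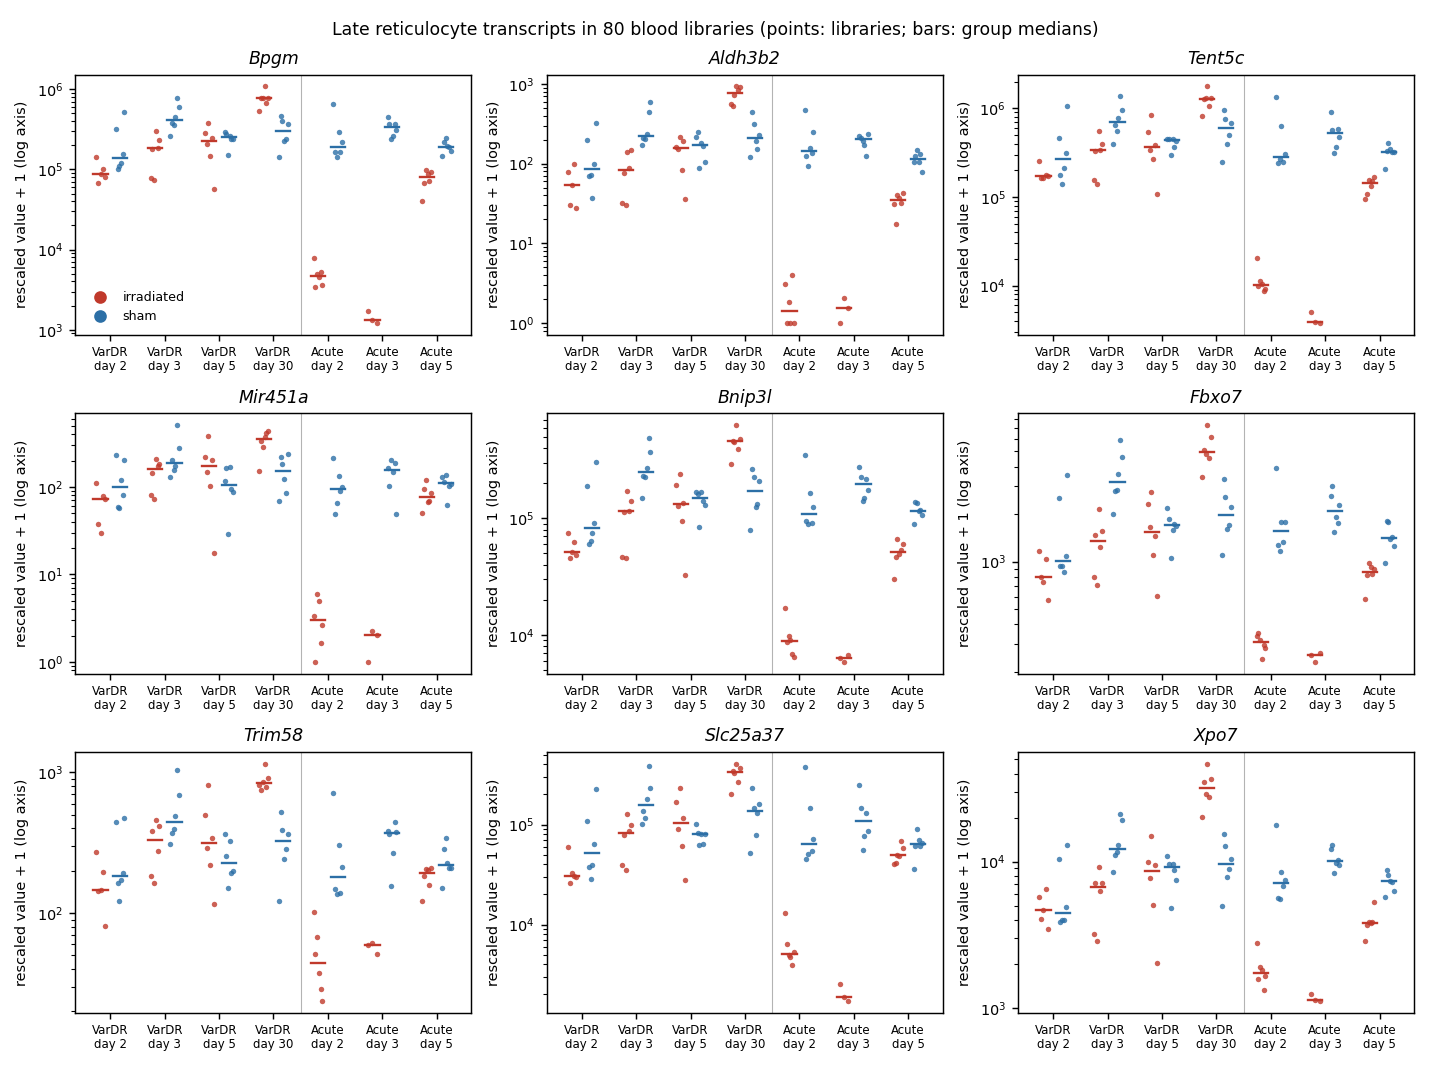
Rescaled counts plus 1 (log axes) of each member in all 80 libraries, irradiated to the left of sham within each mode and day, with points for libraries and bars for group medians. On acute days 2 and 3 every irradiated library lies below every sham in all 9 panels, and on VarDR day 5 the pairs overlap in all 9.

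Ratios of members within a library do not depend on how columns are scaled. Bpgm over Bnip3l was held closely among the 42 shams, between 1.56 and 1.88. It was 0.389 to 0.770 on acute day 2 and 0.181 to 0.273 on acute day 3, outside the sham range, while on VarDR day 30 it was 1.61 to 1.80 against 1.74 to 1.83 in the shams of that day. Bpgm over Xpo7 was 2.71 ± 0.654 on acute day 2 against 29.9 ± 4.96 in shams, 1.21 ± 0.153 on day 3 (n = 3) against 31.6 ± 4.43 in shams, and 19.6 ± 3.97 on day 5 against 26.7 ± 1.74 in shams (mean ± SD, n = 6 otherwise). The acute day 2 and day 3 values lay far outside the sham range, and on day 5 the groups overlapped, at 14.2 to 25.3 against 25.2 to 30.00 in shams. Under VarDR the same ratio was 15.6 to 24.7 on day 2 (n = 5) against 26.6 to 40.2 in shams, and 20.97 to 26.7 on day 30 against 27.4 to 35.1 in shams. These 2 pairs did not overlap, and those of days 3 and 5 did. The genes for these ratios were chosen with the members' differences known, and how often other ratios separate was not counted. Tent5c over Xpo7 overlapped its shams on VarDR day 2, at 27.1 to 50.15 against 35.1 to 81.4. On VarDR day 30 it did not, at 35.3 to 45.5 against 49.3 to 65.7 in shams.

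Slc25a37 over Bpgm moved the other way. It was 0.744 to 1.90 on acute day 2 against 0.273 to 0.580 in shams, 1.43 to 1.47 on day 3 against 0.234 to 0.543 in shams, and 0.510 to 0.994 on day 5 against 0.245 to 0.385 in shams. On VarDR day 5 it was 0.423 to 0.616 against 0.263 to 0.413 in shams, so each irradiated library was above each sham in these 4 pairs. On VarDR days 2, 3 and 30 the ranges overlapped. Mir451a, Trim58 and Slc25a37 had the 3 highest differences of the 9 members on acute day 5, VarDR day 3 and VarDR day 5, a grouping that was chosen after the values were seen.

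**Figure D4:**
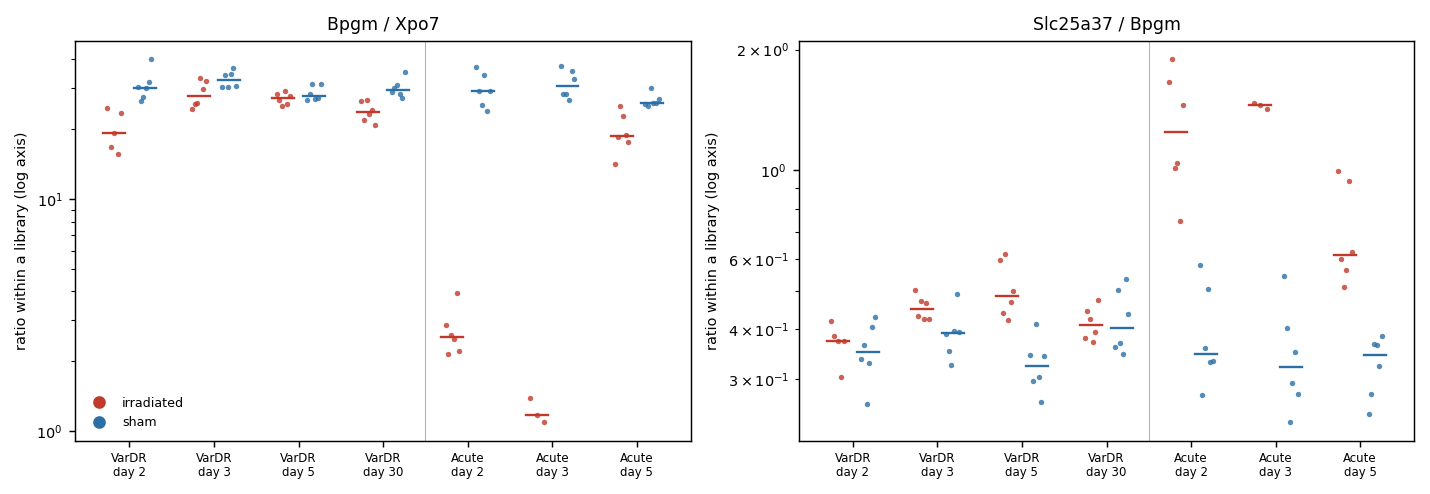
Ratio of Bpgm to Xpo7 (left) and of Slc25a37 to Bpgm (right) within each library (log axes), irradiated to the left of sham, with points for libraries and bars for group medians. On acute day 3 the first ratio is 1.09 to 1.38 against 26.7 to 37.4 in shams, and the second 1.43 to 1.47 against 0.234 to 0.543.

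Within a group the members often had the same lowest or highest library. In 11 of 14 groups a single library was the lowest for at least 5 of the 9 members, and in 11 of 14 a single library was the highest for at least 5. Acute irradiated day 3, counted among the first 11, has only 3 libraries. How often other sets of 9 genes do the same was not counted, so nothing particular to the members is read from these counts. In VarDR irradiated day 5, replicate 6 was lowest and replicate 3 highest for all 9, and in acute sham day 2 replicate 1 was highest for all 9. A low library can thus carry a group's spread for every member at once: Bpgm on VarDR day 5 had 56.3 kilocounts in replicate 6 and 376 in replicate 3.

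The sham groups were compared to see how far the members drift without radiation. The same sham libraries entered the contrasts that picked the members, so the differences and p-values here are not free of that choice. Between acute and VarDR shams of the same day, the median log2 difference of the members was 0.36 on day 2, −0.56 on day 3 and −0.26 on day 5, and 0 of 9 passed an adjusted p of 0.05 by limma on each day (0, 1 and 0 of 9 at an unadjusted p under 0.05), where 0%, 0.00948% and 0.0427% of all genes passed. On day 3 all 9 were lower in the acute shams, with Fbxo7 at −0.67 ± 0.29 (adjusted p = 0.249 by limma, 95% interval −1.25 to −0.09) and Mir451a at −0.75 ± 0.46 (adjusted p = 0.449). VarDR shams of day 30 differed from the mean of the VarDR shams of days 2, 3 and 5 by a median of 0.09, with 0 of 9 past adjusted p by limma (0 at an unadjusted p under 0.05, and 0% of all genes past the adjusted threshold). Aldh3b2 had the largest of these differences, 0.42 ± 0.34 (95% interval −0.27 to 1.10, adjusted p = 0.737 by limma). The 95% intervals of single members reached up to 1.61 (Aldh3b2, acute against VarDR shams of day 2) and down to −1.67 (Mir451a, day 3), so drifts within such intervals were not detectable here. On the values as deposited, 5 of 9 passed lower in the day 30 shams, where 50.9% of all genes did (median −0.74), and 2 of 9 in the acute shams of day 3, where 15.7% did (median −0.42).

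The wider red cell programme was described with 10 lists of genes that are not members, and q below is the adjusted p by limma over all 21101 genes. Of all genes, 2.53%, 5.12%, 5.41% and 12.7% passed higher on VarDR days 2, 3, 5 and 30, and 0.744%, 5.24%, 3.38% and 12.5% passed lower. On acute days 2, 3 and 5, 7.37%, 11.8% and 9.76% passed higher and 7.47%, 8.73% and 9.12% lower. Of the 9 haemoglobin genes tested (10 listed), 7 fell on acute day 2, 6 on day 3 and 5 on day 5, when 1 rose (the embryonic globin Hbb-y at 2.04, named after its value was seen), with medians of −4.28, −7.29 and −1.44. The α-globin gene Hba-a2 had −7.66 ± 0.48, q = 6.06e-22 on acute day 3 and 1.66 ± 0.39, q = 0.000722 on VarDR day 30, and its neighbour Hba-a1, a near-identical copy that shares reads with it, −7.85 ± 0.49, q = 1.09e-21 and 1.71 ± 0.40, q = 0.000762. On VarDR day 3, 4 of 9 fell (median −1.28), and on day 30, 8 of 9 rose (1.67). Of the 8 haem synthesis enzymes, 5, 6 and 2 fell on acute days 2, 3 and 5, 3 fell on VarDR day 3 and all 8 rose on VarDR day 30. Alas2, the first enzyme of the pathway in red cells, had −8.01 ± 0.40, q = 3.82e-27 on acute day 3 and −1.71 ± 0.33, q = 0.000105 on VarDR day 3, and Fech, which inserts the iron, −6.79 ± 0.45, q = 7.56e-21 and −1.50 ± 0.36, q = 0.00254. On VarDR day 30 with columns at equal totals, 1 of 9 haemoglobin genes and 0 of 8 haem enzymes passed higher (0 and 0 lower, medians 0.29 and 0.14), where 0.284% of all genes passed higher and 58.1% lower.

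Membrane and cytoskeleton genes make up the next list. Of 14 tested, 12 fell and 1 rose on acute day 2 (median −3.05), 12 fell on day 3 (−4.52), and 2 fell and 2 rose on day 5 (−0.26). On VarDR day 3, 7 fell (−1.085), and on day 30, all 14 rose (1.56). Epb41, the cytoskeletal protein 4.1, had −4.23 ± 0.50, q = 2.68e-10 on acute day 3 and 1.11 ± 0.41, q = 0.0362 on VarDR day 30, and Slc4a1, the band 3 anion exchanger, −5.79 ± 0.51, q = 6.97e-15 and 1.52 ± 0.42, q = 0.00393. With columns at equal totals 3 of 14 passed higher on VarDR day 30 (0.284% of all genes did), with Epb41 at −0.26 and Slc4a1 at 0.15, neither past the threshold. On the values as deposited 5 rose and 0 fell on acute day 5 (median 0.69), where 47.98% of all genes passed higher and 2.09% lower. On acute day 5 Slc4a1 was 0.19 ± 0.42, q = 0.828.

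Genes of earlier erythroid stages moved in both directions after acute exposure. Of 10 (among them the erythropoietin receptor Epor, Kit, Gdf15 and Erfe), 2 rose and 2 fell on acute day 2, 3 rose and 3 fell on day 3, and 3 rose and 1 fell on day 5, with medians of 0.50, 0.73 and 0.87. Car2, carbonic anhydrase 2, had −6.11 ± 0.51, q = 6.08e-16 on acute day 3, and the transferrin receptor Tfrc −1.64 ± 0.40, q = 0.00118. On VarDR day 30, 4 of 10 rose, Tfrc at 1.71 ± 0.32, q = 3.43e-05. Of 10 erythroid transcription factors and partners, 3 rose and 3 fell on acute day 2, and 3 rose and 4 fell on acute days 3 and 5. Lmo2, an adaptor of the Gata1 and Tal1 complex, was −3.78 ± 0.33, q = 5.65e-15 on acute day 2, against 1.16 ± 0.21, q = 1.06e-05 for Nfe2, which also acts in platelet-forming cells. All 8 platelet markers looked at rose in all 3 acute comparisons, at 284 to 372 kilocounts in sum on acute day 3 against 73.6 to 103 kilocounts in shams. Their part in these lists was not tested. With columns at equal totals the factor list had 5, 6 and 5 higher and 3, 2 and 3 lower on acute days 2, 3 and 5. Its median turned positive (0.47, 0.74 and 0.60), where the all-gene medians were 0.80, 1.435 and 0.62. On that scale 36.9%, 62.5% and 27.8% of all genes passed higher on these days and 3.04%, 2.66% and 2.73% lower, and the early erythroid list had 4, 6 and 5 higher and 2, 2 and 0 lower.

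The ubiquitin and organelle clearance lists are nearest to the members' own roles. Of 15 ubiquitin system genes tested (16 listed), 10 fell on acute days 2 and 3 each and 3 on day 5 (medians −2.31, −2.81 and −0.49), 7 fell on VarDR day 3 and 12 rose on VarDR day 30. Ube2l6, a conjugating enzyme, had −7.33 ± 0.40, q = 3.43e-25 on acute day 3 and the polyubiquitin gene Ubb −3.08 ± 0.37, q = 2.54e-10. Of 16 organelle clearance genes without Bnip3l, 4 fell on each of acute days 2 and 3, 2 and 3 rose, and the medians were 0.26 and 0.15. The exceptions included the Atg8 family genes Gabarapl2 (−4.57 ± 0.39, q = 1.35e-15 on acute day 3) and Map1lc3b (−3.28 ± 0.39, q = 3.25e-10). On VarDR day 3, 4 of 16 clearance genes fell, and on day 30, 9 rose. With columns at equal totals 8 of 16 clearance genes and 4 of 15 ubiquitin genes passed lower on VarDR day 30 and 0 passed higher in either list, where 58.1% of all genes passed lower and 0.284% higher. On the same scale 9 and 11 of the 16 clearance genes passed higher and 4 lower on acute days 2 and 3, where 36.9% and 62.5% of all genes passed higher.

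For the partners of single members, 12 glycolysis genes around Bpgm had 6, 7 and 9 higher and 0 lower on acute days 2, 3 and 5, with medians of 0.52, 0.74 and 0.58. Gapdh was 0.99 ± 0.18, q = 1.05e-05 and the aldolase gene Aldoa 0.90 ± 0.16, q = 4.09e-06 on acute day 3, where Bpgm itself was −7.86 ± 0.42. Of 12 mitochondrial iron and haem transport genes around Slc25a37, 6 fell on acute days 2, 3 and 5 each and 0, 1 and 1 rose (medians −0.64, −1.17 and −0.53), 6 fell on VarDR day 3, and on VarDR day 30, 10 rose and 1 fell. The sign of this list's median turned with the scale, as did the level of all genes. With columns at equal totals its acute medians were 0.16, 0.06 and 0.13, below the all-gene medians of 0.80, 1.435 and 0.62. On VarDR day 30 with equal totals 1 of its genes rose and 5 fell. The glycolysis list had 6 higher and 1 lower on VarDR day 30, but 0 higher and 11 lower with columns at equal totals, where 58.1% of all genes passed lower and the all-gene median was −1.32. The carrier Slc25a39 had −6.88 ± 0.41, q = 8.94e-23 on acute day 3, and the iron-sulfur scaffold Iscu −4.45 ± 0.39, q = 5.77e-15. Around Mir451a, 4 of 6 listed genes were tested: Ago2, Foxo3, and the known miR-451 targets Ywhaz and Cab39. On the acute days 2, 2 and 2 rose and 1, 1 and 0 fell, the 1 that fell being Ago2. With columns at equal totals 3, 3 and 4 rose and 0 fell, where 36.9%, 62.5% and 27.8% of all genes passed higher. With equal totals on VarDR day 30, 0 of the 4 rose and 2 fell. Ywhaz passed higher in all 7 comparisons on the rescaled values but lower on VarDR day 30 with equal totals (−0.86 ± 0.17, q = 1.04e-05). Its rescaled differences ran from 0.52 ± 0.14, q = 0.00245 on VarDR day 30 to 1.24 ± 0.14, q = 8.28e-12 on acute day 5. Foxo3 rose on VarDR day 30 on the rescaled values (1.45 ± 0.24, q = 3.98e-06) and did not pass in the other 6, while with equal totals its day 30 difference was 0.074 ± 0.15, q = 0.688.

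**Figure D5:**
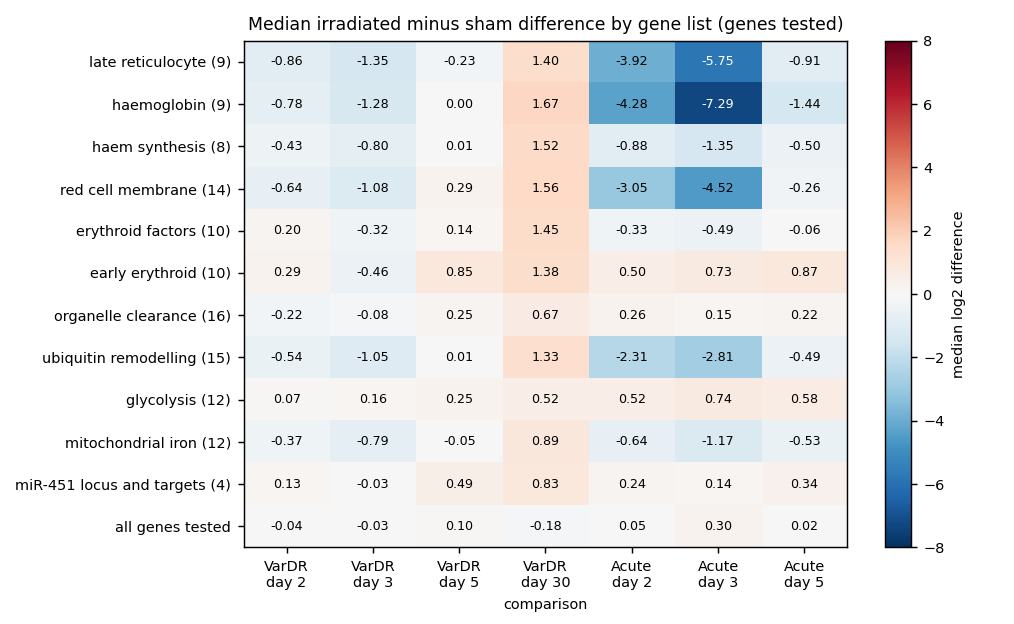
Median log2 difference (irradiated minus sham, colour and number) of the 9 members, of 10 lists of genes that are not members and of all genes tested, with the number of genes tested in parentheses, for each mode and day. Haemoglobin (−7.29), the members (−5.75) and membrane genes (−4.52) are the lowest on acute day 3, and early erythroid (0.73) and glycolysis genes (0.74) lie above all genes (0.30) there.

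The genes most like the members were ranked by the root mean square distance of their 7 log2 differences from the members' medians, over 15760 genes that are not members. Among the 6 nearest were Psme3 (0.21), an activator of the proteasome, the haem transporter Slc48a1 (0.22), the exonuclease Isg20 (0.24), the phosphatase Phospho1 (0.25) and Prxl2a (0.26). Psme3 had −0.69, −1.32, −0.10 and 1.304 on VarDR days 2, 3, 5 and 30, and −3.68, −5.30 and −0.89 on acute days 2, 3 and 5. The members' own distances ran from 0.30 for Slc25a37 and 0.34 for Bnip3l to 1.44 for Trim58, and 9 other genes were nearer than the nearest member. The 7 comparisons share no shams, and the likeness is over 7 values only.

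By position, 3 of the 9 members (Bnip3l, Slc25a37 and Xpo7) lie on chromosome 14, within 66985239–70766628 of GRCm38, and 4.16% of tested genes with a location are on that chromosome. Mir451a and Trim58 both lie on chromosome 11. No other chromosome holds more than 1 member.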

How the data were processed

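Gene-level signal was deposited by the authors as normalised read counts that are not whole numbers. Per the submitters' processing notes, the tools were bcl2fastq 2.19, kallisto 0.44.0, sleuth and DESeq2, on the build GRCm38. The table has 82 value columns, and the 80 with a labelled sample were used; the other 2 have none. Leaving out 26 entries with dates in place of symbols (up to 0.471% of a column) gave 50365 genes, 13129 of them 0 throughout. Columns were set to the same median of ratios over 11349 genes. The 21101 genes with 10 or more in 3 libraries or more were fitted in limma 3.58.1 (R 4.3.3) as log2 values with a pseudocount of 1, all 14 groups in 1 model, and p-values were adjusted over all genes (Benjamini-Hochberg). The fit was tested on simulated data. Python 3.11.15 was used for the rest.

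The members and all gene lists were chosen with earlier results of these data known. Named genes were all 9 members, the 2 genes of highest mean level in each list, and the 6 genes nearest to the members by root mean square distance, leaving out predicted genes, pseudogenes and antigen receptor segments. A few genes that belong to these lists or to the nearest genes are not reported here. Other genes were named where they define a list, overlap a member or mark a cell type. Libraries were grouped by the labelled dose mode, treatment and day. Read depth is unknown from normalised values, so no counting interval is given. Locations and exon lengths are those of GENCODE M21 on GRCm38. The closing section gives the effect of other scalings, filters and pseudocounts and of libraries left out.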

Additional observations from a re-analysis of the deposited data

Results flagged for a closer look

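Single libraries stood apart from the rest of their group (by Dixon's test at 95%) in 11 of 117 sets of a member in a group. Chance alone gives about 1 in 20 for independent sets. These sets share libraries, and the members often had the same lowest or highest library, so the count cannot be weighed against that rate. The lowest values apart from their group were Bpgm at 151300 and Mir451a at 27.6 in VarDR sham day 5 replicate 3, Aldh3b2 at 16.3 in acute irradiated day 5 replicate 2, Fbxo7 at 577.5 in acute irradiated day 5 replicate 1, Tent5c at 207800 in acute sham day 5 replicate 1 and Mir451a at 60.3 in acute sham day 5 replicate 4. The highest were Tent5c at 256000 and Slc25a37 at 59650 in VarDR irradiated day 2 replicate 1, Tent5c at 20640 in acute irradiated day 2 replicate 1, and Fbxo7 at 3908 and Xpo7 at 17710 in acute sham day 2 replicate 1. All are rescaled counts.

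In 15 pairs of days, every VarDR day 30 irradiated library was above the mean of its shams, taken over log2 values. Every irradiated library of the earlier VarDR day was below its own sham mean on the same scale. The difference between the days was not tested. Against day 3 this held for all 9 members, with log2 gaps between the differences of 2.91 for Bpgm, 3.69 for Aldh3b2, 2.53 for Tent5c, 1.90 for Mir451a, 2.98 for Bnip3l, 2.84 for Fbxo7, 2.36 for Trim58, 2.67 for Slc25a37 and 3.03 for Xpo7. Against day 2 it held for 6 members, with gaps of 2.36 for Bpgm, 2.74 for Aldh3b2, 1.92 for Tent5c, 2.41 for Bnip3l, 2.10 for Fbxo7 and 2.26 for Slc25a37. With sham means of rescaled counts instead, every VarDR day 2 irradiated library was below the mean for Mir451a and Xpo7 too. These contrasts were among those that picked the members. The share of all genes that meet the same rule was not counted, so nothing is read from the number of members. The level of the day 30 libraries depends on the scale, as given above.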

How the results depend on the processing

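The acute day 2 and day 3 differences were negative for all 9 members, with 9 of 9 past the threshold, under every setting tried. The direction of the VarDR day 30 difference was not kept under every scale. Medians below are of the members' log2 differences. On the values as deposited the median was −4.74 on acute day 3 and 0.043 on acute day 5 (0 called, Xpo7, the median member, at 0.043), and 2 members were called in acute against VarDR shams of day 3 and 5 in VarDR shams of day 30 against earlier shams (Bpgm −0.76, Bnip3l −0.85, Xpo7 −0.73). Quantile normalization gave −0.64 on VarDR day 3, 0.61 on VarDR day 30 (4 called, Tent5c −0.16) and −5.35 on acute day 3. With it, 9.21% of all genes passed higher on VarDR day 30 and 11.6% lower. Equal column totals, chosen after seeing the data, gave −0.50 on VarDR day 3, 0.023 on VarDR day 30 (0 called, with Tent5c at −0.19, Mir451a at −0.16 and Fbxo7 at −0.0021), and −3.12, −4.52 and −0.25 (3 called) on acute days 2, 3 and 5, with 2 called on VarDR day 2. Both sets of calls were lower. Of all genes, 2.73% passed lower and 27.8% higher on acute day 5, and 0.374% lower and 2.37% higher on VarDR day 2. On VarDR day 30 it was 58.1% lower and 0.284% higher. Equal totals after leaving out 7SL, haemoglobin and mitochondrial genes, also chosen after seeing the data, gave 0.52 on VarDR day 30 (5 called), −5.30 on acute day 3 and 2 called on VarDR day 2. There 2.86% of all genes passed higher and 44.7% lower on VarDR day 30 (median −0.91). On VarDR day 2, where both members were called lower, 0.346% of all genes passed lower and 3.16% higher. Without libraries over 0.5% liver markers the median was −5.98 on acute day 3, with 1 irradiated library that is assumed to vary like the other groups, and 3 were called on acute day 5. The cause of these shifts was not tested. Leaving out the acute day 5 library highest in mt-Rnr2 was likewise added after seeing the data and changed no call.

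Leaving out 1 library at a time, the medians ranged from −1.05 to −0.52, −1.54 to −1.14, −0.45 to 0.11 and 1.21 to 1.57 on VarDR days 2, 3, 5 and 30, and from −4.15 to −3.58, −5.95 to −5.52 and −1.003 to −0.82 on acute days 2, 3 and 5. The calls ranged from 6 to 7 on VarDR day 3, 6 to 9 on VarDR day 30 and 4 to 6 on acute day 5, and stayed at 9 on acute days 2 and 3 and at 0 elsewhere. Across the settings that left out no single library, 1096 of the members' differences kept direction and call, 34 lost and 12 gained a call, 38 moved and 8 reversed.

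No paired analysis was possible because the labels give no replicate numbers and the numbers used here only follow the order of the samples. Group sizes of 3 to 6 libraries and unknown depth limit the precision, and on acute days 2 and 3 Aldh3b2 and Mir451a lay at the floor of the table.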
